A study of Mus musculus with 4 samples.

Results

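Secretory luminal and basal cells of wild-type mouse mammary glands were compared between a vehicle library and a giredestrant library. Both libraries came from animals carrying wild-type Esr1, the gene of the estrogen receptor. A cell was placed in the secretory class when Wfdc18, Csn3, Elf5 and Kit together made up at least 10 of every 10000 of its UMIs (unique molecular identifiers, each counting 1 captured transcript) and Acta2, Myh11, Mylk and Tagln fewer than 10. It was placed in the basal class when Acta2, Myh11, Mylk and Tagln made up at least 20 per 10000 and Krt5 and Krt14 at least 10. In both classes Esr1, Prlr, Areg and Foxa1 had to stay under 10 per 10000. The rule selected 6802 of the 10111 wild-type cells kept, and the series held 25950 kept cells among 30062 deposited barcodes. The secretory class held 668 vehicle and 588 giredestrant cells, and the basal class 4604 and 942.

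The series crossed 2 Esr1 genotypes, wild type and Y541S, with 2 treatments, and each combination has 1 library. All animals were 6 months old and carried pellets of E2 (estradiol) and P4 (progesterone), the controls included. Over the 4 days of dosing the controls received the vehicle MCT daily, and the treated animals received giredestrant by mouth at 30 mg/kg. EpCAM-positive cells were sorted from dissected glands, so cells without this epithelial surface protein were depleted, and the number of animals behind a library is not given in the sources used here. The source label names mature luminal cells, yet most vehicle cells that could be classed were basal.

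The mammary epithelium has an inner luminal layer and an outer basal layer. Luminal cells are either hormone-sensing, which carry the estrogen and progesterone receptors, or secretory, which largely lack them and include the precursors of milk-producing cells. Basal cells are contractile, resemble smooth muscle and rest on the basement membrane. Steroid hormones are known to reach secretory and basal cells mostly through signals released by hormone-sensing neighbours. Giredestrant binds the estrogen receptor, blocks it and promotes its breakdown.

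Markers that the rule did not use were present in each class. Of the 11 secretory markers 7 are not used by the rule, and all 7 reached a mean of 10 CPM in secretory cells over the 2 libraries (CPM is the summed UMIs of a gene scaled to 1000000 per class and library). Plet1, a surface protein of luminal progenitors, stood at 1907 CPM under vehicle and 1877 CPM under giredestrant there, against 93.03 and 43.1 CPM in basal cells. Of the 11 basal markers 5 are not used by the rule, and all 5 reached that level in basal cells. Cnn1, which encodes the smooth muscle protein calponin, stood at 550 and 410 CPM there. Few cells lay near the thresholds. Within 20% of the marker minimum, 4 vehicle and 5 giredestrant secretory cells lay just inside and 8 and 2 just outside, and for basal cells the numbers were 64 and 20 inside and 53 and 16 outside.

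The vehicle library held 98223195 UMIs and the giredestrant library 84215237, and the 2 libraries shared 8 cell barcodes, 0.264% of the smaller. Cells of the giredestrant library were deeper. The median secretory cell held 12831 UMIs under vehicle and 20789 under giredestrant, and the median basal cell 10422 and 18558. Secretory cells made up 9.43% of kept vehicle cells (exact 95% binomial interval 8.76% to 10.1%) and 19.4% of kept giredestrant cells (18.02% to 20.9%). Basal cells made up 65.0% (63.9% to 66.1%) and 31.1% (29.5% to 32.8%). Intervals here and below cover counting error only. Sorting and recovery can set these shares, and their part was not tested. Markers of other cell types were low in both classes. The summed immune markers stood at 2.48 and 6.54 CPM in secretory cells and at 6.33 and 28.4 CPM in basal cells. The summed fibroblast markers stood at 2.08 and 16.1 CPM in secretory cells and at 127 and 258 CPM in basal cells, and 1 of 6 was at 0 in vehicle secretory cells. The summed endothelial markers lay between 2.77 and 14.2 CPM.

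Few genes differed by 2-fold in either class. Ratios are given as log2 of giredestrant over vehicle relative to the median gene of the class, with exact 95% binomial intervals, and a gene is called when it lies at least 2-fold from that median. With 1 library per group there is no estimate of the spread between animals and no test. Of 8735 genes with a mean of at least 10 CPM in secretory cells, 107 were called higher (1.22%) and 127 lower (1.45%), 2.68% in all. Of 8285 such genes in basal cells, 139 were called higher (1.68%) and 210 lower (2.53%), 4.21% in all. The basal split depends on the centre: without centring 207 genes were higher and 156 lower, and with TMM scaling 101 were higher and 262 lower. The median basal gene itself stood at 0.11 on the uncentred log2 scale, and the TMM centre at 0.20. Secretory values were 0.06 and 0.02.

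The 7419 genes measured in both classes show how far the calls were shared. Among them 72 were called higher in secretory cells, 93 in basal cells and 32 in both (0.431%), which is 44.4% of the secretory calls and 34.4% of the basal calls. Another 80 were called lower in secretory cells, 146 in basal cells and 26 in both (0.35%), which is 32.5% and 17.8%. Calls in 1 class with the other within 0.32 on the log2 scale numbered 12 higher and 13 lower for secretory cells. For basal cells there were 12 higher and 45 lower. A single gene was called in opposite directions. Both classes come from the same pair of libraries, so a difference between the libraries moves with both.

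**Figure D1:**
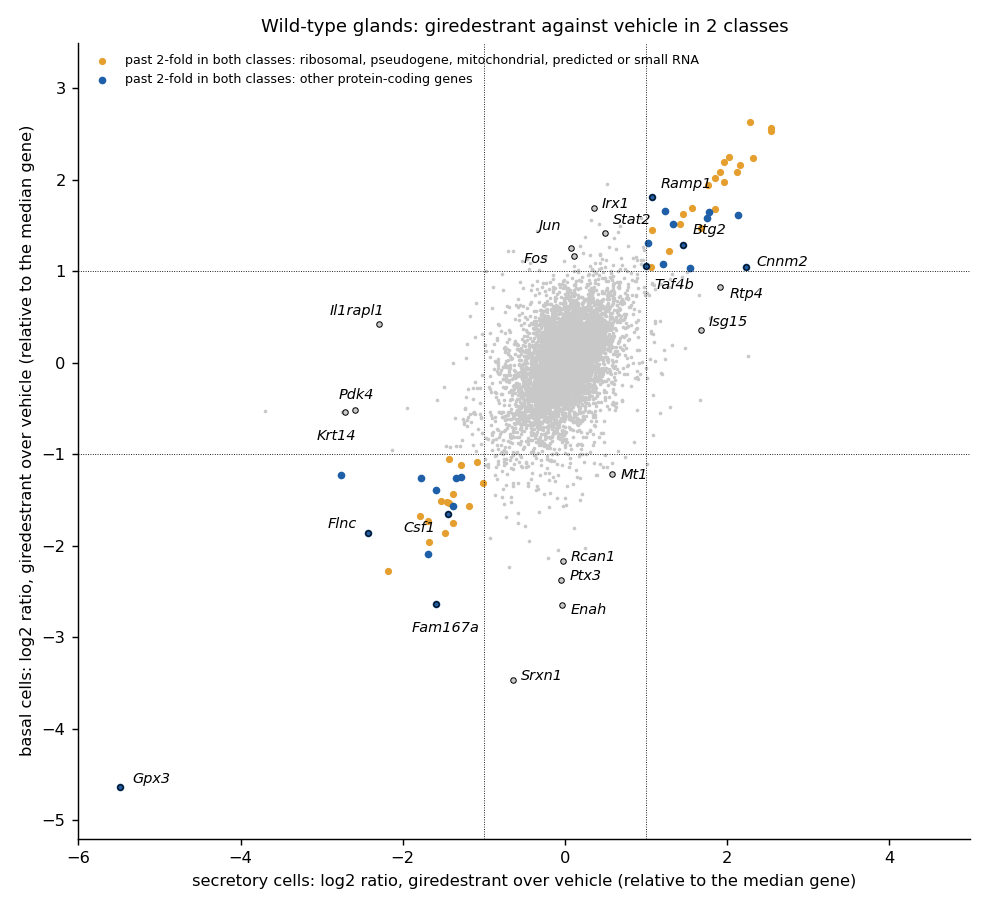
Each point is 1 of 7419 genes measured in both classes; the x axis is the log2 ratio of giredestrant over vehicle in secretory cells and the y axis the same in basal cells, both relative to the median gene, and dotted lines mark 2-fold. Coloured points were called in both classes, while Ptx3, Enah and Rcan1 lie low only on the basal axis and Isg15 and Rtp4 are past 2-fold only on the secretory axis.

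Most genes called in both classes were also called in hormone-sensing cells. Of the 32 called higher, 19 of the 30 measured in hormone-sensing cells and 15 of the 23 measured in non-epithelial cells were called higher there too. Of the 26 called lower, 21 of 24 and 16 of 21 were called lower there. In all, 6.29% and 8.64% of 8555 genes were called higher and lower in hormone-sensing cells, and 6.35% and 6.25% of 9111 in non-epithelial cells. Among all secretory calls measured in hormone-sensing cells, 34 of 71 higher and 51 of 86 lower were called the same way there. For all basal calls these were 35 of 85 and 60 of 141. By kind, the 32 higher genes held 3 mitochondrial genes, 9 pseudogenes, 7 further ribosomal or predicted models, the small RNA locus Mir703 and 12 other protein-coding genes. The 26 lower genes held mt-Nd3, Mir6236, 7 pseudogenes, 6 ribosomal or predicted models and 11 other protein-coding genes. Reads of pseudogenes and ribosomal genes can be split among near-identical copies, so these values are uncertain. Rps29, a protein of the small ribosomal subunit, illustrates the pattern. It stood at 4653 CPM under vehicle and 1795 CPM under giredestrant in secretory cells and at 4708 and 1763 CPM in basal cells, with log2 ratios of -1.43 and -1.53. Its log2 ratio was -2.13 in hormone-sensing and -1.58 in non-epithelial cells. The mitochondrial gene mt-Atp6, a subunit of ATP synthase, went the other way, from 61.6 to 249 CPM in secretory cells and from 81.3 to 345 CPM in basal cells. Of 77 ribosomal protein genes the same 4 (Rpl35, Rpl38, Rps28 and Rps29) were called lower in both classes, and the median over all 77 was 0.07 in secretory and -0.04 in basal cells.

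**Figure D2:**
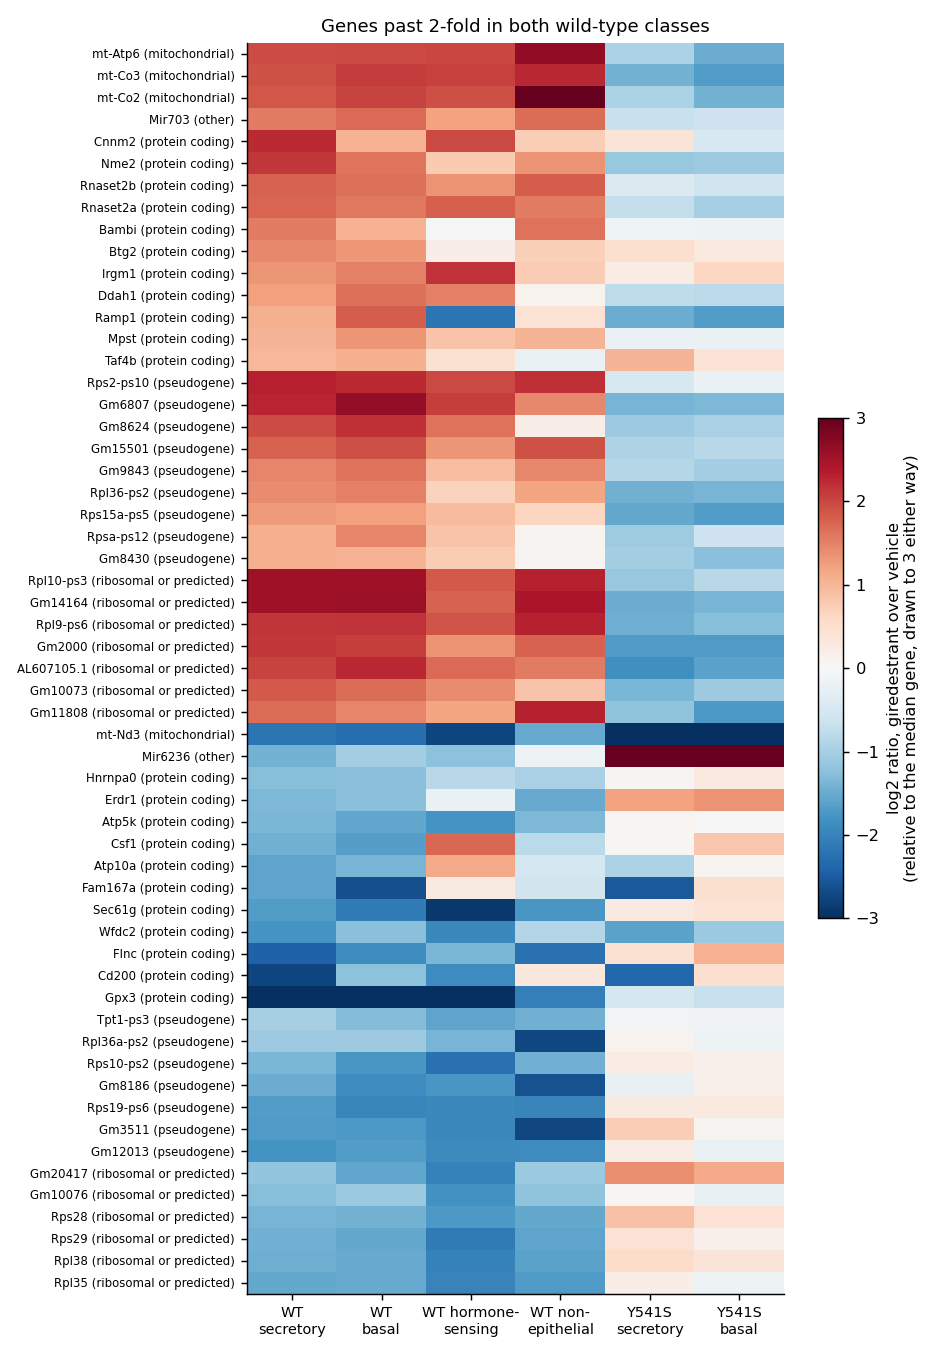
Rows are 57 of the 58 genes called in the same direction in both wild-type classes, with their kind in brackets; columns are 4 wild-type classes and the 2 Y541S classes, and colour is the log2 ratio of giredestrant over vehicle relative to the median gene. Most mitochondrial, pseudogene and ribosomal rows keep their colour across the 4 wild-type columns, whereas Csf1, Atp10a and Btg2 do not.

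Btg2, Csf1 and Taf4b were called in both classes without a call in the same direction in hormone-sensing cells, and Fam167a and Atp10a were called in both while their level in hormone-sensing cells was under the limit of 10 CPM. Btg2 (chr1:134075170-134079120, GRCm38), an antiproliferative immediate early gene, stood at 177 CPM under vehicle (exact Poisson interval 169 to 185) and 503 CPM under giredestrant (492 to 515) in secretory cells. In basal cells it stood at 226 and 596 CPM. The log2 ratios were 1.45 (1.37 to 1.53) and 1.29 (1.26 to 1.33), against 0.20 in hormone-sensing cells and 0.70 in non-epithelial cells. After each cell was thinned to 3000 UMIs, the share of secretory cells with a Btg2 UMI was 28.5% under vehicle and 53.5% under giredestrant, and the share of basal cells 42.7% and 71.9%. The shares in both classes lay far from 0, so the level did not rest on a few cells.

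Csf1 encodes macrophage colony-stimulating factor, which recruits and sustains macrophages. It stood at 173 CPM (165 to 181) under vehicle and 66.4 CPM (62.2 to 70.7) under giredestrant in secretory cells. In basal cells it stood at 351 and 120 CPM. Its log2 ratios were -1.44 and -1.65, and in hormone-sensing cells it lay the other way at 1.72. There it stood at 4.19 CPM under vehicle and 17.6 CPM under giredestrant, far below the basal levels. Csf1 reached the level limit in hormone-sensing cells only through the giredestrant library, so that it had to lie high. The part of stray RNA in these levels was not tested. The thinned share of basal cells with a Csf1 UMI was 44.9% and 24.3%, and of secretory cells 19.6% and 13.4%. Fam167a stood at 43.9 and 15.2 CPM in secretory cells and at 49.3 and 8.54 CPM in basal cells. Its log2 ratio was lower in basal cells, -2.64 against -1.59, a difference of 1.05 (counting interval 0.72 to 1.38). Atp10a, a lipid flippase, stood at 69.2 and 23.9 CPM in secretory cells and at 68.3 and 28.1 CPM in basal cells. Flnc, the actin cross-linker filamin C, was by contrast lower in all 4 wild-type classes, with log2 ratios of -2.43 in secretory, -1.85 in basal, -1.38 in hormone-sensing and -2.24 in non-epithelial cells. Taf4b, a subunit of a general transcription factor complex, stood at 49.7 and 104 CPM in secretory cells and at 88.8 and 200 CPM in basal cells, at the 2-fold limit in both with log2 ratios of 1.001 and 1.06. Under 10 other settings it stayed past 2-fold in 7 in secretory cells and in 8 in basal cells.

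Ramp1, a partner of the receptor for the neuropeptide CGRP, was higher in both classes while it was lower in hormone-sensing cells. It stood at 35.3 and 77.4 CPM in secretory cells and at 14.8 and 56.4 CPM in basal cells, with a log2 ratio of -2.19 in hormone-sensing cells. Mpst, a mitochondrial sulfur transferase, passed 2-fold in both classes and lay at 0.86 in hormone-sensing cells. Sec61g and Atp5k, small proteins of the secretory translocon and of ATP synthase, were lower in all 4 classes, with log2 ratios between -2.89 and -1.35.

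Some genes of the type I interferon response were higher in secretory cells. Interferons act through a STAT2 complex with IRF9, which binds a repeated GAAA element upstream of antiviral genes. Of 20 listed genes 12 were measured in secretory cells, with a median of 0.66. In hormone-sensing cells the median of the same 12 was higher, at 1.41, with genes under the level limit there included. Of the 12, Irf7, Oasl2, Xaf1 and Stat2 reached the mean of 10 CPM in secretory cells only through the giredestrant library, so that they had to lie high. Among the 8 that reached 10 CPM under vehicle, a limit chosen after seeing the data, Isg15 and Rtp4 were called higher and none lower, where 1.22% of all secretory genes were called higher, and the median was 0.56. Over all 20 members with no level limit it was 1.46, with genes of few UMIs included. Isg15, a ubiquitin-like antiviral protein, stood at 13.5 CPM (11.3 to 15.9) under vehicle and 44.8 CPM (41.4 to 48.4) under giredestrant, a log2 ratio of 1.68. Rtp4 stood at 10.6 and 41.5 CPM (log2 1.91), and Irf7, a transcription factor that amplifies the response, at 5.45 and 19.5 CPM (log2 1.79). Oasl2 and Xaf1, with Irf7 among the 4 above, were called as well, at 1.44 and 1.48. The other 7 measured members, among them Stat2 and Bst2, lay between 0.36 and 0.68.

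In basal cells Stat2 alone was called among 13 measured members, where 1.68% of all basal genes were called higher. The list median was 0.49, and 0.43 over the 12 members that reached 10 CPM under vehicle. In hormone-sensing cells the median of the 13 was 1.14, again with genes under the level limit there included. Stat2 stood at 20.4 CPM (19.2 to 21.6) under vehicle and 58.8 CPM (55.4 to 62.4) under giredestrant in basal cells, a log2 ratio of 1.42, against 0.50 in secretory cells. Isg15 lay at 0.36 and Rtp4 at 0.83 in basal cells. The difference between the classes was 1.08 (0.73 to 1.43) for Rtp4 and 1.29 (0.83 to 1.75) for Irf7, counting error only. Rtp4 was also called higher in hormone-sensing cells, at 3.46. It reached the level limit there only through the giredestrant library, so that it had to lie high. Irf7 stood at 2.33 and 14.6 CPM in hormone-sensing cells, under the level limit. The thinned share of secretory cells with an Isg15 UMI was 3.02% under vehicle and 8.61% under giredestrant, and 11.1% and 27.9% before thinning. In basal cells, at median depths of 10422 and 18558 UMIs, it was 6.29% and 8.38%. The top cell held 19.9% of the vehicle Isg15 UMIs of secretory cells.

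The promoters of Isg15 and Stat2 are shown because Isg15 was called in secretory cells and Stat2 in basal cells. Of the 20 listed genes 14 were matched by symbol in the RefSeq promoter table of GRCm38.p6, and 7 of these 14 hold GAAA, any 2 bases and GAAA again on either strand within the 250 bases before the gene's start. Among all 32851 such windows 978 hold it (2.98%), and 936 of 27025 genes hold it in at least 1 window (3.46%). Of the 12 members measured in secretory cells 8 were matched and 3 of them hold it. The windows are chr4:156200819-156201068 on the minus strand for Isg15 and chr10:128270248-128270497 on the plus strand for Stat2, read 5′ to 3′ along the gene, with capitals for every match on either strand. Overlapping matches run together, and a match is a description of the letters only.
Isg15: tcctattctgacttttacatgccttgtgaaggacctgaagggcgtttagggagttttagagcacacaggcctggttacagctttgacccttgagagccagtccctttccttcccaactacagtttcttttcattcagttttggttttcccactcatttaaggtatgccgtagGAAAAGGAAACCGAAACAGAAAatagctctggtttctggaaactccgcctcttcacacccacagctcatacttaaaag
Stat2: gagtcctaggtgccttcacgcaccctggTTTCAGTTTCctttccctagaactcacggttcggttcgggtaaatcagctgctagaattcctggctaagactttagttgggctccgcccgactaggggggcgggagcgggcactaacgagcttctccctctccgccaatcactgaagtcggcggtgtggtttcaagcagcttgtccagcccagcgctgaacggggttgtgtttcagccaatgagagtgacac
Isg15 holds 3 overlapping matches, which begin 78, 72 and 66 bases before its start, and Stat2 holds 1 that begins 222 bases before.

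Hey1 was among the 8 genes furthest higher in secretory cells. It is a transcriptional repressor activated by Notch, a pathway that favours luminal fates. It stood at 13.5 CPM (11.3 to 15.9) under vehicle and 60.9 CPM (57.0 to 65.1) under giredestrant in secretory cells, a log2 ratio of 2.12. In basal cells it stood at 7.02 and 6.72 CPM, under the level limit, and the difference between the classes was 2.29 (1.90 to 2.68, counting error). The thinned share of cells with a Hey1 UMI was 3.97% and 12.7% in secretory cells and 1.96% and 1.83% in basal cells. In hormone-sensing cells Hey1 stood at 0.310 and 3.93 CPM, under the level limit. Nrarp, another Notch target, lay at 1.16 in secretory cells but reached the level limit only through the giredestrant library. The receptors Notch1, Notch2 and Notch3 lay between -0.45 and -0.12, and the median of the 7 measured Notch genes was -0.23.

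Cebpd, a transcription factor of acute phase and steroid responses, stood at 172 CPM (164 to 180) under vehicle and 562 CPM (550 to 575) under giredestrant in secretory cells. The thinned share with a UMI was 28.8% and 60.9%. Its log2 ratio was 1.65 there and 0.74 in basal cells. Genes called higher in secretory cells with basal cells within 0.32 on the log2 scale numbered 12, of which 7 passed the level limits for naming and 6 are named. They were Trp53inp1, a p53 target (28.8 and 68.7 CPM), the adhesion molecule Ncam1 (32.3 and 76.6 CPM), Gbp2, Mzt2, Sema4c and Nfkbie. Under 10 other settings Gbp2 stayed past 2-fold in 6, Sema4c in 8 and Ncam1 in 9, and the other 3 in all 10. Nfkbie, an inhibitor of NF-kB, stood at 20.7 and 44.6 CPM. In hormone-sensing cells Sema4c lay at 1.41 and Trp53inp1 at -0.07. Gbp2 and Mzt2 lay at 2.53 and 0.70 there, but reached the level limit only through the giredestrant library. Ncam1 and Nfkbie were under that limit in hormone-sensing cells. Among 11 measured genes of RANK signalling and NF-kB, Birc3 (log2 1.06) and Nfkbie (1.05) were called higher in secretory cells, both just past 2-fold, where 1.22% of all genes were called higher. None was called higher in basal cells, against 1.68% of all genes. The list medians were 0.23 and -0.04.

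Secretory products of milk and of innate defence were split. Ltf encodes lactoferrin, an iron-binding antimicrobial milk protein. It stood at 349 CPM (338 to 361) under vehicle and 75.1 CPM (70.7 to 79.7) under giredestrant, a log2 ratio of -2.28, and the thinned share of secretory cells with an Ltf UMI was 27.8% and 10.3%. In basal cells, which should lack lactoferrin, 0.286% and 0.107% held one. Of 9 measured acute phase and antimicrobial genes 4 were called lower and 2 higher, Lrg1 at 1.04 and Lbp at 1.32, against 2.68% of all genes called either way, and the median was -0.25. Of these 9 genes Hp stood at 3.40% and 3.08% of its level in hormone-sensing cells and Wfdc2 at 1.93% and 1.77%, so stray RNA and expression cannot be told apart for them. That median was 0.06 with the upper limits of the class rule halved and 0.0041 with the highest cell of each gene left out. Saa1 rested on 1 cell, which held 99.3% of its 267 vehicle UMIs, and was at 0 under giredestrant.

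The caseins Csn1s1 and Csn2 were lower under giredestrant, while Csn3, which the class rule used, stood at 947 and 907 CPM. Csn1s1 stood at 58.0 and 4.59 CPM (log2 -3.72), and 5.88% of thinned vehicle cells and 1.55% of thinned giredestrant cells held a UMI. Csn2 had 310 UMIs under vehicle, 43.5% of them in 1 cell, and 0 under giredestrant. Lalba, the milk whey protein and a cofactor of lactose synthesis, lay the other way, at 7.03 and 17.9 CPM (log2 1.29). Of the 9 measured milk protein genes 1 was called higher and 2 lower, against 2.68% of all genes called either way, and the median was -0.14. Lalba reached the level limit only through the giredestrant library.

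Other genes lower in secretory cells were closer to the median gene, or above it, in basal cells. Pdk4, a kinase that shuts pyruvate out of mitochondrial oxidation, stood at 156 and 27.1 CPM in secretory cells (log2 -2.59) and at 84.6 and 63.6 CPM in basal cells (-0.52). In hormone-sensing cells Pdk4 was lower too, at -3.87. Il1rapl1 stood at 37.4 and 7.93 CPM in secretory cells and at 26.0 and 37.5 CPM in basal cells. Crip1 stood at 626 and 149 CPM in secretory cells (log2 -2.13) and lay at -1.99 in hormone-sensing cells. Timp3, an inhibitor of metalloproteinases, stood at 93.3 and 14.4 CPM (log2 -2.75), against -0.53 in basal cells. Nrg1, a ligand of ERBB receptors, stood at 106 and 42.4 CPM in secretory cells and at 834 and 900 CPM in basal cells. Its secretory level was 12.7% and 4.72% of the basal one, and basal cells made up 65.0% and 31.1% of the libraries. The same share was 1.51% and 0.324% for Krt14 and 2.05% and 0.723% for Krt17. The part of stray RNA in the Nrg1 level was not tested. The 6 genes named as called lower with basal cells within 0.32 on the log2 scale lay close to the limit, from -1.02 to -1.20. They were Sipa1l1, Ephb2, Fam107b, Ptprs, F3 and Elf4, of which F3, tissue factor, starts blood clotting. Under 10 other settings Fam107b stayed past 2-fold in 5, Sipa1l1 and Elf4 in 6 each, F3 in 9, and Ephb2 and Ptprs in all 10. In hormone-sensing cells F3 lay at -2.27, Sipa1l1 at -1.31, Ptprs at -0.90 and Fam107b at -0.13. Ephb2 and Elf4 were under the level limit there.

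The gene called in opposite directions was Ptprz1, a receptor tyrosine phosphatase. It stood at 18.8 CPM (16.2 to 21.7) and 39.4 CPM (36.3 to 42.8) in secretory cells and at 42.6 and 21.4 CPM in basal cells. The log2 ratios were 1.01 and -1.10. Under 10 other settings the secretory value stayed past 2-fold in 6 and the basal value in 7, with the lowest sizes 0.64 and -0.63.

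**Figure D3:**
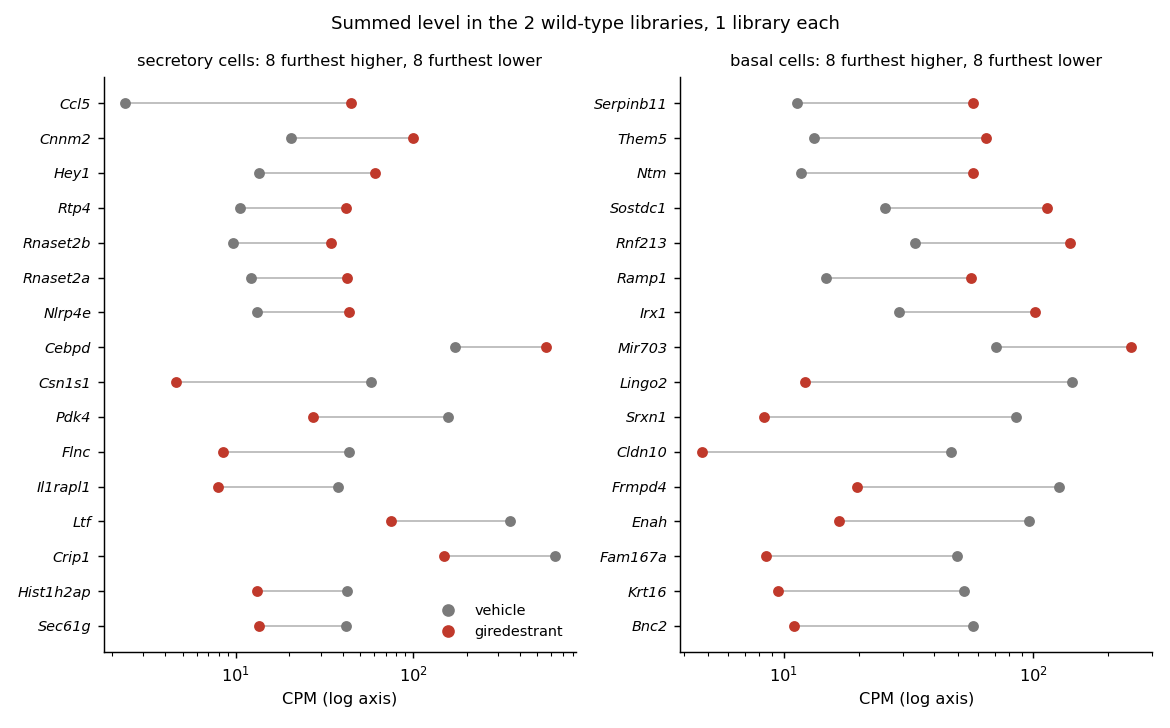
Summed CPM on a log axis for the 8 genes furthest higher and the 8 furthest lower in secretory cells (left) and basal cells (right), grey for the vehicle library and red for the giredestrant library, 1 library each. Hey1 and Cebpd are higher and Csn1s1 and Ltf lower in secretory cells; Sostdc1 is higher and Lingo2 lower in basal cells.

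Some genes far from the median in secretory cells rested on single cells. Ccl5, a T cell chemokine, had 642 giredestrant UMIs in secretory cells, 91.4% of them in 1 cell. Cxcl9 had 284, with 76.4% in 1 cell, and the hemoglobin gene Hbb-bs had 418, with 99.3% in 1 cell. The summed erythroid markers accordingly stood at 0.891 CPM under vehicle and 52.6 CPM under giredestrant.

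In basal cells the immediate early genes stood apart from the median gene. These genes, many of which encode transcription factors, are switched on within minutes by growth factors and by stress, tissue dissociation included. Of 21 measured genes 5 were called higher and 1 lower, against 4.21% of all basal genes called, and the list median was 0.67. Jun stood at 350 CPM (345 to 355) under vehicle and 902 CPM (889 to 916) under giredestrant, Fos at 696 and 1689 CPM, and Egr1 at 407 and 1007 CPM. Klf2 (log2 1.43) and Btg2 were the other 2. Dusp1, a phosphatase that switches off MAP kinases, was called lower at -1.04. Fosl1, Fosl2 and Jund lay between -0.87 and -0.58.

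In secretory cells of the same libraries the list median was 0.16, and Btg2 alone was called. Jun stood at 809 and 887 CPM there and Fos at 1568 and 1768 CPM. Under vehicle the basal levels were thus the lower ones, and under giredestrant Jun stood at similar CPM in both classes. The difference between the classes was -1.18 (-1.23 to -1.13) for Jun and -1.06 (-1.09 to -1.02) for Fos. The thinned share of basal cells with a Fos UMI was 61.5% and 84.4%, and of secretory cells 45.5% and 58.9%. Heat shock genes, also known to respond to dissociation, had a median of -0.04 in basal and -0.12 in secretory cells, and 1 of 12 and 0 of 12 were called, against 4.21% and 2.68% of all genes. The part of dissociation was not tested.

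EGF family genes were lower in basal cells in part. Of 8 measured genes 4 were called lower and none higher, where 2.53% of all basal genes were called lower, and the median was -0.997. Hbegf, a ligand of the EGF receptor, stood at 143 CPM (140 to 146) under vehicle and 45.7 CPM (42.7 to 48.9) under giredestrant, a log2 ratio of -1.75. The ligands Nrg2, Tgfa and Ereg lay at -1.22, -1.09 and -1.05, and Errfi1, a feedback inhibitor of the receptor, at -0.94. The receptor gene Egfr lay at -0.20 and Nrg1 at 0.00. In secretory cells the median of 11 measured members was -0.14, the only call was Nrg1, whose secretory level was under 1/5 of the basal one, and Hbegf lay at -0.58.

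Mt1 and Mt2 were lower in basal cells and lay above the median gene in secretory cells. Mt1 and Mt2 encode small proteins that bind zinc and copper and are induced by metals and glucocorticoids. Mt1 stood at 12051 CPM under vehicle and 5586 CPM under giredestrant in basal cells (log2 -1.22) and at 335 and 521 CPM in secretory cells (0.58). Mt2 stood at 2426 and 972 CPM in basal cells (-1.43) and at 60.7 and 73.0 CPM in secretory cells (0.21). The difference between the classes was 1.80 (1.74 to 1.86) for Mt1 and 1.64 (1.49 to 1.78) for Mt2. The secretory Mt1 level was only 2.78% of the basal one under vehicle and 9.33% under giredestrant, and Mt2 was likewise far below its basal level. Stray RNA was not separated from expression in secretory cells for Mt1 and Mt2, so these differences are uncertain. In hormone-sensing cells both lay low, at -1.36 and -1.27. Sgk1 and Dusp1 were also called lower in basal cells, which made 4 of 11 measured steroid-induced genes, with none called higher and a median of -0.82, where 2.53% of all basal genes were called lower. Another 4 of the 11 lay above the median gene, up to 0.74 for Cebpd. The median over the 12 measured in secretory cells was 0.08, with Cebpd called higher and Pdk4 lower.

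Windows before the RefSeq starts of Mt1 and Mt2 are shown because these neighbouring genes on chromosome 8 were both lower in basal cells. The windows are chr8:94178839-94179088 for Mt1 and chr8:94172368-94172617 for Mt2, RefSeq on GRCm38.p6, both on the plus strand, and cover the 250 bases before the gene's start. Capitals mark TGCGCNC or TGCACNC on either strand, the core of the metal response element. Of all 32851 windows 21.4% hold at least 1 match and 1.26% hold 3 or more.
Mt1: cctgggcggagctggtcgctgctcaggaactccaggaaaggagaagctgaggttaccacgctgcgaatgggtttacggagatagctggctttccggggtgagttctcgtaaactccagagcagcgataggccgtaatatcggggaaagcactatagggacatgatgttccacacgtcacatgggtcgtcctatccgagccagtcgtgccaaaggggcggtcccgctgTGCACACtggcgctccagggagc
Mt2: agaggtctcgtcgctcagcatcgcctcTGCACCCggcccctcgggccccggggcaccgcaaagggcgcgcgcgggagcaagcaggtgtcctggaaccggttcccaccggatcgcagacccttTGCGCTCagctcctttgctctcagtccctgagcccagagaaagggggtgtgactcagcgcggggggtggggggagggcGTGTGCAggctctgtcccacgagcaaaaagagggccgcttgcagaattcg
The Mt1 window holds 1 match, which begins 23 bases before the RefSeq start used. The Mt2 window holds 3, which begin 223, 128 and 50 bases before. Bases after these starts were not searched, so matches beyond the windows are not counted. The numbers of metal response elements of the 2 genes cannot be compared from these windows.

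Genes of oxidative stress, glycolysis and matrix were lower in basal cells in part. Srxn1, which repairs oxidised peroxiredoxins, stood at 85.6 CPM (83.1 to 88.1) under vehicle and 8.38 CPM (7.12 to 9.79) under giredestrant. Its log2 ratio was -3.46, against -0.64 in secretory and -1.96 in hormone-sensing cells. In the same list Gpx2 lay the other way, from 16.4 to 51.6 CPM, and the median of 12 was -0.39. Of 16 glycolysis and hypoxia genes 4 were called lower, where 2.53% of all basal genes were, Vegfa (288 and 96.5 CPM, log2 -1.68), Eno1 (-1.47), Ndrg1 (-1.37) and Hk2 (-1.20). The median was -0.04, and Gapdh and Pkm lay at -0.06 and 0.01. Of 14 matrix remodelling genes 4 were called lower, against the same 2.53%. Thbs1, thrombospondin 1, stood at 690 and 253 CPM (-1.56), and Timp1 and Tnc lay at -2.13 and -1.17. Thbs1 lay at 0.01 in secretory cells. Of 15 targets of TGF-beta and BMP signals in basal cells, Id3 and Id1 were called lower, at -1.43 and -1.33. Bambi was called higher, at 1.04, and the median was -0.16. Of 14 lineage factors Sox9 and Sox10 were called lower, at -1.31 and -1.07, and none higher, with a median of -0.20. Of all basal genes 4.21% were called either way.

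Of 45 genes called lower in basal cells with secretory cells within 0.32 on the log2 scale, 36 passed the level limits for naming. Enah, an actin regulator, led with 96.1 CPM (93.5 to 98.8) and 16.6 CPM (14.8 to 18.5) in basal cells and 91.0 and 92.5 CPM in secretory cells. Its thinned share was 20.2% and 5.91% in basal cells and 20.03% and 22.2% in secretory cells, so the basal giredestrant share stood apart from the other 3. Ptx3, a soluble pattern recognition molecule, stood at 205 and 42.8 CPM in basal cells and at 13.9 and 13.98 CPM in secretory cells. Rcan1, an inhibitor of calcineurin, stood at 176 and 42.2 CPM in basal cells and at 24.96 and 25.5 CPM in secretory cells. Pde10a, Tspan8 and Timp1 followed, with basal log2 ratios of -2.02, -2.05 and -2.13. In hormone-sensing cells Timp1 lay at -2.87, Enah at -0.52 and Rcan1 at 0.23. Ptx3, Pde10a and Tspan8 were under the level limit there. The 6 named genes higher in basal cells with secretory cells within 0.32 on the log2 scale were Jun, Fos, Rsrp1, Mboat2, Il1rap and BC052040, of which Il1rap, the shared subunit of the interleukin 1 receptors, stood at 46.1 and 107 CPM. Under 10 other settings Mboat2 stayed past 2-fold in 8 and Il1rap in 9.

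Lingo2 was lower in basal cells and sparse in secretory cells. It stood at 143 CPM (140 to 146) under vehicle and 12.2 CPM (10.6 to 13.8) under giredestrant, a log2 ratio of -3.66. The thinned share of basal cells with a UMI was 19.5% and 2.58%, and of secretory cells 1.59% and 1.89%. Slpi, a secreted inhibitor of leukocyte proteases, stood at 3010 and 700 CPM in basal cells, and its thinned share was 72.4% and 50.1%. Its log2 ratio was -2.21 in basal and -7.79 in hormone-sensing cells. Greb1, an early estrogen-induced gene, stood at 27.0 CPM (25.7 to 28.4) and 1.71 CPM (1.17 to 2.41) in basal cells, with thinned shares of 7.12% and 0.43%. In hormone-sensing cells it stood at 258 and 3.84 CPM, so the basal level was 10.5% and 44.5% of that. Under vehicle the same share was 0.495% for Gpx3, 3.01% for Pgr and 6.69% for Esr1. The part of stray RNA in the Greb1 level was not tested. No thinned secretory cell held a Greb1 UMI in either library. Of 18 measured estrogen response genes in basal cells 2 were called lower, Greb1 and Ccnd1, 1 higher, Igfbp4, against 4.21% of all genes called either way, and the median was -0.19. The progesterone receptor gene Pgr stood at 11.8 and 13.1 CPM in basal cells. Of 16 estrogen response genes measured in secretory cells 3 were called lower and none higher, with a median of -0.17. Of all secretory genes 1.45% were called lower.

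Genes higher in basal cells included Sostdc1, an inhibitor of BMP and Wnt signals. It stood at 25.4 CPM (24.1 to 26.7) under vehicle and 113 CPM (109 to 118) under giredestrant, and the thinned share was 5.76% and 21.6%, against 1.91% and 2.58% in secretory cells. Wnt6, a ligand, stood at 7.17 and 31.6 CPM (log2 2.03), and Sfrp1, which binds Wnt ligands, at 41.7 and 11.8 CPM (-1.92). They were the only calls among 15 Wnt genes, where 4.21% of all basal genes were called either way, and the list median was -0.20. Wnt6 reached the level limit only through the giredestrant library. In secretory cells the median of 6 measured Wnt genes was -0.55, with none called. Krt15, a basal keratin, stood at 298 and 966 CPM with thinned shares of 30.1% and 61.3%, while Krt5 and Krt14, which the rule used, lay at 0.55 and -0.54. Krt16, a keratin of wounded epithelium, stood at 53.02 and 9.496 CPM. Serpinb11, Them5, Ntm, Rnf213 and Irx1 lay between 1.69 and 2.24. Rnf213 and Irx1 lay at 2.06 and 1.03 in hormone-sensing cells, where Serpinb11, Them5 and Ntm were under the level limit. Of 18 contractile genes measured in basal cells, 4 of them used by the class rule, 14 lay below the median gene and 4 above it, up to 0.62 for Actg2. None was called and the median was -0.40.

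**Figure D4:**
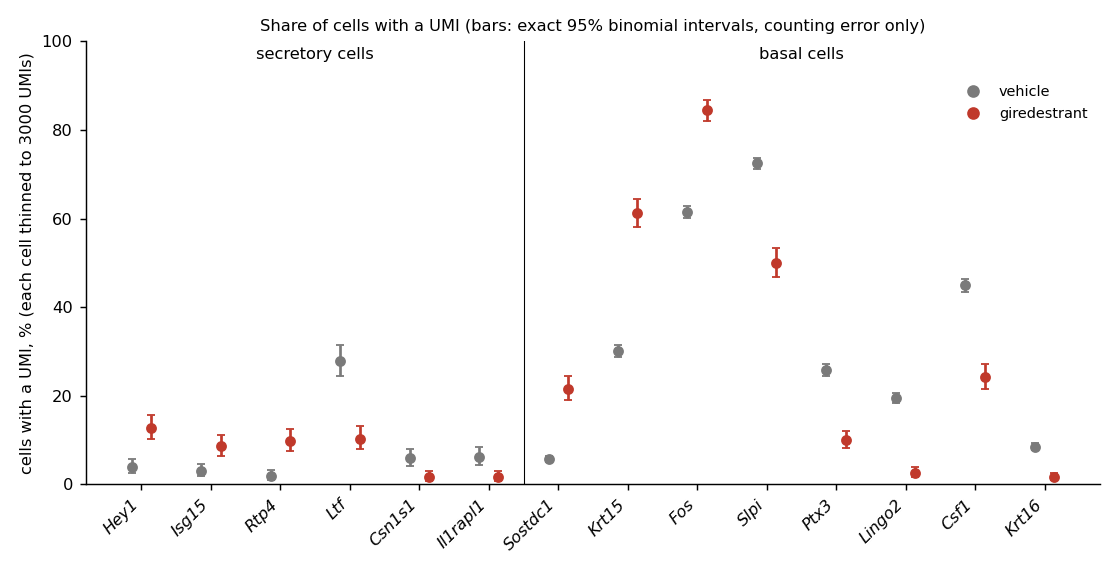
Share of cells with at least 1 UMI after every cell was thinned to 3000 UMIs, for 6 genes in secretory cells and 8 in basal cells, grey for vehicle and red for giredestrant, with exact 95% binomial intervals that cover counting error only. The share for Sostdc1 in basal cells is 5.76% and 21.6%, and for Lingo2 19.5% and 2.58%.

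Some calls concerned genes whose level was far higher in another class of the same library. Gpx3, a secreted glutathione peroxidase, was called lower in both classes, at 117 and 2.71 CPM in secretory cells and 54.1 and 2.35 CPM in basal cells. In hormone-sensing cells it stood at 10943 CPM under vehicle and 500 CPM under giredestrant. The secretory level was 1.07% of the hormone-sensing level under vehicle and 0.543% under giredestrant, and the basal level 0.495% and 0.470%. Wfdc2, a protease inhibitor, was likewise between 0.922% and 1.93% of the hormone-sensing level in both classes and libraries. In secretory cells the basal keratin Krt14 stood at 58.5 and 9.32 CPM, which was 1.51% and 0.324% of the basal level, while basal cells made up 65.0% and 31.1% of the libraries, and 1 cell held 41.6% of its vehicle UMIs. Under such a level, below 1/5 of another class, lay 15 of the 107 higher and 27 of the 127 lower secretory calls, and 8 of the 139 higher and 19 of the 210 lower basal calls. Stray RNA was not separated from expression for them.

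Several other lists lay near the median gene in both classes. Medians for the unfolded protein response were -0.06 in secretory and -0.12 in basal cells, for cholesterol synthesis -0.17 and -0.19, for S phase 0.15 and -0.11, and for the respiratory chain 0.05 and -0.0019. No gene of these lists was called in either class. MHC class I genes had a median of 0.46 in secretory cells with none of 13 called, and 0.02 in basal cells with Tap1 called higher. The MHC class II median of 0.50 in basal cells rested on few cells, since 1 cell held 79.3% of the H2-Eb1 and 80.1% of the H2-Aa giredestrant UMIs.

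**Figure D5:**
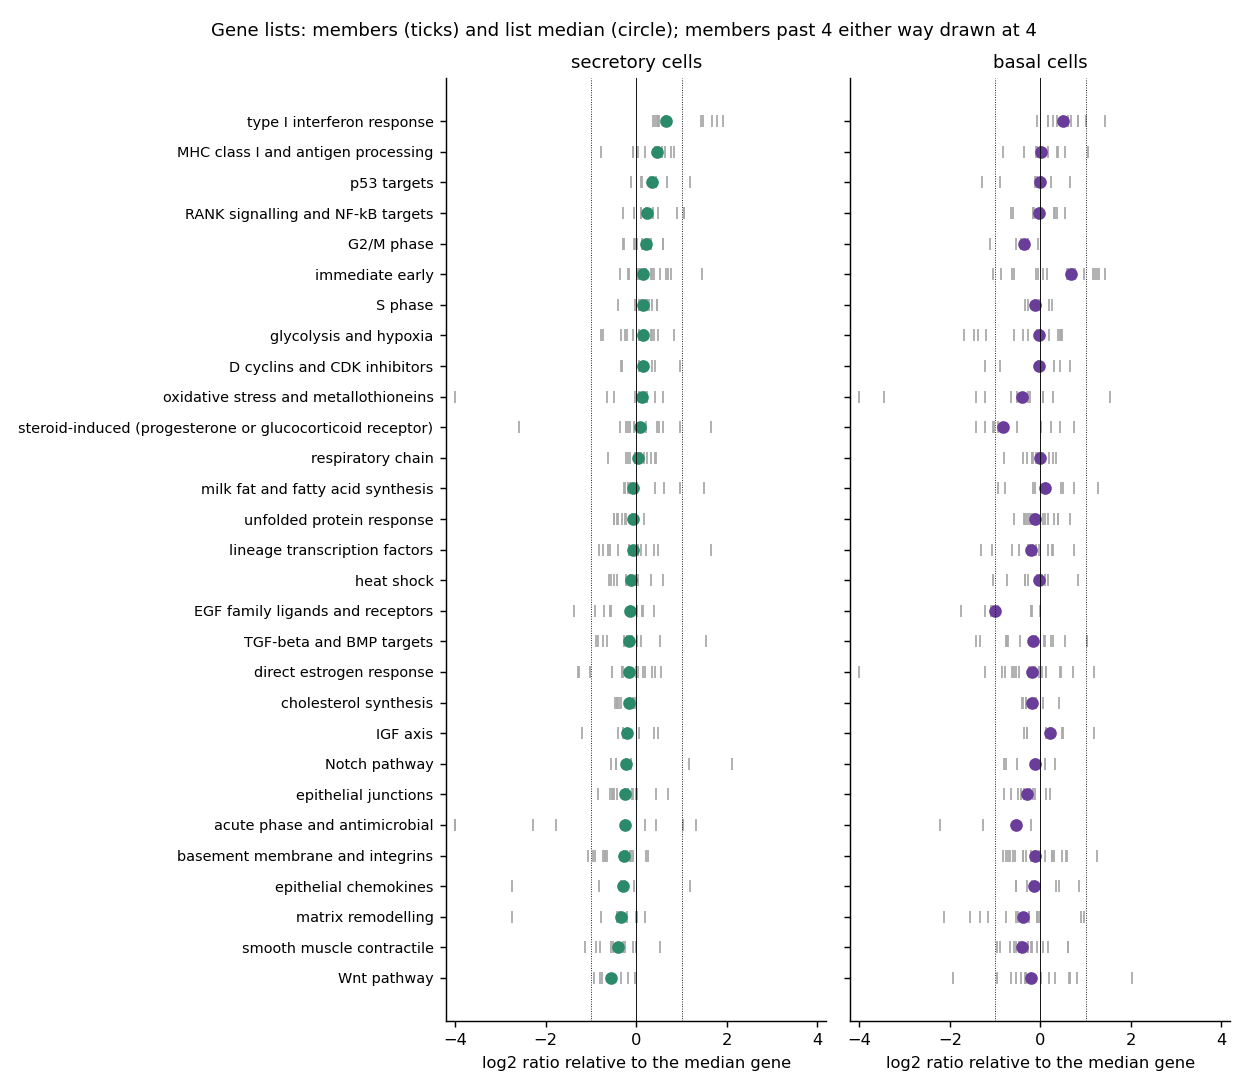
Gene lists with at least 4 measured members in both classes, sorted by the secretory median; the x axis is the log2 ratio of giredestrant over vehicle relative to the median gene, ticks are members, circles list medians and dotted lines 2-fold. In basal cells the immediate early list has the highest median (0.67) and the EGF family (-0.997) and steroid-induced (-0.82) lists the lowest of those drawn, while the secretory median of the interferon list (0.66) includes 4 genes that passed the level limit only through the giredestrant library.

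The Y541S libraries give a second pair of vehicle and giredestrant libraries that shares none with the wild-type comparison. Here the giredestrant cells were the shallower ones, the reverse of wild type. The median secretory cell held 14988 UMIs under vehicle and 6998 under giredestrant, and the median basal cell 12187 and 5662. Of 90 genes called higher in wild-type secretory cells and measured in both genotypes, 16 were called higher and 23 lower in Y541S secretory cells, where 2.52% and 3.75% of all genes were called. Of 110 called lower, 20 were called lower and 20 higher. In basal cells 1 of 116 genes called higher in wild type was called higher in Y541S and 24 lower, where 1.29% and 1.07% of all genes were called. Of 197 called lower, 12 were called lower and 26 higher. The median log2 ratio of Y541S secretory genes was -0.66 for transcripts of 500 to 1000 bases and 0.21 over 4000 bases. In wild-type secretory cells these were 0.12 and -0.08. The opposite calls include mt-Atp6 in basal cells, at 1.98 in wild type and -1.50 in Y541S. The parts of depth and transcript length in these counts were not tested. The interferon list had medians of -0.04 in Y541S secretory and 0.06 in Y541S basal cells, and the immediate early list 0.15 in Y541S basal cells. Btg2 lay at 0.48 and 0.29 and Csf1 at 0.03 and 0.81 in Y541S secretory and basal cells. Taf4b and Trp53inp1 in secretory cells lay at 1.02 and 1.37 in Y541S, past 2-fold on the same side as in wild type, and Ltf at -1.54. Il1rapl1 lay at -2.43, but at 8.43 and 1.55 CPM it was under the level limit there. In basal cells Slpi lay at -3.52. The differences between the genotypes have no replicate and were not tested.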

How the data were processed

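EpCAM-sorted mammary cells were profiled with the 10x Genomics 3.1 kit for transcript 3′ ends. The authors deposited matrices of unnormalized UMI counts for each gene in each barcode, written by Cell Ranger 6.0.1 per the file headers. GRCm38 is named in the submitters' processing notes. The annotation release and the handling of intronic reads are not given in the sources used here. The deposited feature and barcode lists hold other text, gene identifiers and cell barcodes, in matrix order.

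Barcodes with at least 1000 UMIs, at least 500 genes and at most 15% mitochondrial UMIs were kept. Classes followed the marker rule of the opening paragraph, which leaves out cells with both luminal and contractile markers, and no doublet was removed beyond that. As an alternative the cells with the highest Scrublet scores were left out, 460 vehicle cells (8 secretory, 367 basal) and 89 giredestrant cells (3 and 7). The other alternatives concerned the level limit, the fold, the centring, the depth and weight of cells, the class limits, the cell filter, cycling cells and genes higher in another class. UMIs were summed per library and class, scaled to CPM and centred on the median gene with a mean of at least 10 CPM. A count of 0 was set to a floor of 3 per class and library. Intervals are exact binomial or Poisson at 95%. Shares of cells were computed after thinning to 3000 UMIs, which left out 39 and 7 shallower secretory and 54 and 11 basal cells. With 1 library per group no test was made. Gene coordinates came from an annotation of GRCm38 that held 52403 of the 52636 identifiers. On simulated counts 200 of 200 changed genes were recovered in each class, among 8599 secretory and 8045 basal genes, with 0 other genes called. The changed genes had at least 20 CPM and were moved by at least 3-fold, and only counting error was simulated. Recovery of smaller changes, and the spread between cells, animals or libraries, were not tested by it. NumPy 2.4.6, SciPy 1.17.1, pandas 2.3.3 and Scanpy 1.11.5 were used under Python 3.11.15.

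The rule for named genes asked for a mean of at least 20 CPM in the class and at least 1/5 of the level of every other class. It took up to 8 genes each way called in both classes, 6 each way called in 1 class with the other within 0.32 on the log2 scale, genes called in opposite directions, and the 2 furthest members of each list in which at least 1/3 were called. The 8 furthest genes each way per class and the further list members named were chosen after their values were seen. The classes, the 34 gene lists and the 11 marker lists were chosen with earlier results of these data known. A few genes are not reported here by name, and 1 of them is left out of the plot of genes called in both classes.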

Additional observations from a re-analysis of the deposited data

Results flagged for a closer look

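Ptprz1 lay at 1.01 in secretory cells and at -1.10 in basal cells, past 2-fold in opposite directions. The other genes here lay past 2-fold in opposite directions in the wild-type and the Y541S library pairs. In secretory cells these were Ramp1 (1.08 in wild type, -1.49 in Y541S), Erdr1 (-1.34, 1.22), Hey1 (2.12, -1.37), Rtp4 (1.91, -1.16), Csn1s1 (-3.72, 5.38) and Pdk4 (-2.59, 2.81). In basal cells they were Ramp1 (1.82, -1.69), Flnc (-1.85, 1.04), Erdr1 (-1.26, 1.36), Serpinb11 (2.24, -1.81), Lingo2 (-3.66, 3.97), Krt16 (-2.59, 1.27) and Bnc2 (-2.48, 1.90). Each value rests on 1 library per group, and the differences were not tested. Giredestrant cells were deeper than vehicle cells in the wild-type pair and shallower in the Y541S pair.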

How the results depend on the processing

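The counts of called genes moved with the level limit and the fold. In the order higher and lower in secretory cells, higher and lower in basal cells, and higher and lower in both classes, they were 25, 39, 55, 85, 10 and 10 with a mean of at least 50 CPM. With no CPM limit but at least 20 UMIs they were 550, 609, 1073, 1185, 149 and 174, and at 1.5-fold 381, 463, 602, 680, 131 and 154. With cells thinned to 3000 UMIs, 179 secretory genes were higher and 208 lower. Without ribosomal, pseudogene, mitochondrial and predicted genes, chosen after seeing the data, 13 were higher and 12 lower in both classes. The interferon median in secretory cells was 1.46 over all members with no level limit and 0.56 over members with at least 10 CPM under vehicle, both chosen after seeing the data. Of the 107 to 109 values of named genes past 2-fold and measured under a setting, 94 stayed past it with thinned cells and 98 to 107 under the other 9 settings. The MHC class II median in basal cells turned to -0.98 with the marker minimums doubled, where H2-Eb1 lay at -0.98 and H2-Aa at -1.18. It also turned to -0.98 with the highest cell of each gene left out (chosen after seeing the data), where H2-Eb1 lay at -0.98 and H2-Aa at -1.09. The acute phase median in secretory cells turned to 0.059 with the upper limits halved and to 0.0041 without the highest cell. The causes were not tested. No paired analysis was possible because each group has 1 library. Leaving out a replicate could not be done for the same reason, and the spread between animals is unknown.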
